A study of Mus musculus with 12 samples.

Results

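The integrin and laminin subunit genes were chosen by name: every gene in the table whose symbol was an integrin alpha chain (Itga), an integrin beta chain (Itgb) or a laminin alpha, beta or gamma chain (Lama, Lamb, Lamc). This gave 37 of 34820 genes, of which 36 are described (18 integrin alpha, 8 integrin beta and 10 laminin genes). RNA-seq was performed on islets of Langerhans isolated from C57/Bl6 mice. In the Taf4 mutant mice, both floxed alleles of Taf4, which encodes a subunit of the general transcription factor TFIID, were inactivated in adult animals by Cre-ERT2 driven by the Ins1 promoter, and islets were taken 1, 3 or 5 weeks after Tamoxifen. The wild-type animals carried the same Ins1::Cre-ERT2 transgene with intact Taf4 and were also injected. Each library came from the pooled islets of a pair of mice, and 3 wild-type, 3 1-week, 3 3-week and 2 5-week libraries were used. The wild type carries no time label, so it is not known to be matched in time to any mutant group, and age and time after Tamoxifen cannot be told apart between mutant groups.

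Integrins are transmembrane receptors, each made of one alpha and one beta chain, that bind matrix proteins or other cells and link them to the actin cytoskeleton or, for the pair of Itga6 and Itgb4, to keratin filaments. Laminins are secreted trimers of an alpha, a beta and a gamma chain that form the network of basement membranes. Mouse islet endocrine cells lie against the basement membrane of islet capillaries, which endothelial cells largely make, and attach to it through laminin-binding integrins that contain Itgb1.

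The following sequences show the 250 bases upstream of the annotated start of 1 subunit gene that rose after 5 weeks (Itgb5) and 3 that fell (Lama5, Itga1 and Lamb3), from RefSeq on GRCm38.p6, with GC boxes (GGGCGG or its complement CCGCCC) in capitals. TFIID, of which Taf4 is a part, binds around such starts. The windows are chr16:33829415-33829664 on the plus strand, chr2:180225860-180226109 on the minus strand, chr13:115101965-115102214 on the minus strand and chr1:193301744-193301993 on the plus strand.
Itgb5: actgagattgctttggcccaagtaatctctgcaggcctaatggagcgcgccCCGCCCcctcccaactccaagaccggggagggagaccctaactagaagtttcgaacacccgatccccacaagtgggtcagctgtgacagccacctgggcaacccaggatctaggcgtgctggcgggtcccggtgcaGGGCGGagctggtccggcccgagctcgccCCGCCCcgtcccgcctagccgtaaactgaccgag
Lama5: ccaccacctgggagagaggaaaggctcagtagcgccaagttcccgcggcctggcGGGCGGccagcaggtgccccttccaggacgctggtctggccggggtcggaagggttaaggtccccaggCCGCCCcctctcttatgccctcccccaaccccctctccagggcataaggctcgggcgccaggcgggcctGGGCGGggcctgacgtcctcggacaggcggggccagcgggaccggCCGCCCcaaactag
Itga1: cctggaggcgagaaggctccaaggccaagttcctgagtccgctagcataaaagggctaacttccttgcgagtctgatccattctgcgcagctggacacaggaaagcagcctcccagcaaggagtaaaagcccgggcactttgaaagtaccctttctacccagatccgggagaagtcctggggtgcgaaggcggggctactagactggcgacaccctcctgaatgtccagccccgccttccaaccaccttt
Lamb3: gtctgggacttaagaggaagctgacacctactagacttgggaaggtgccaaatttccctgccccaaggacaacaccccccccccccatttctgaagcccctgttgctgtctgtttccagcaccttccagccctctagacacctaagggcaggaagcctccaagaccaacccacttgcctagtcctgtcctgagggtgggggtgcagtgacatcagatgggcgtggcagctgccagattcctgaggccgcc
The Itgb5 window held 3 GC boxes and 18 CpG dinucleotides, and the Lama5 window 4 and 19. The Itga1 window held 0 GC boxes and 10 CpG, and the Lamb3 window 0 and 2. Of the 36 genes, 23 had an entry, in 26 windows. GC boxes on either strand were found in 34.6% of these windows and in 32.7% of all 32851 windows of that length. TATAAA or its complement TTTATA was in 0 of the 26 windows against 12.4% of all, CCAAT or ATTGG in 15.4% against 33.8%, and the AP-1 motif TGACTCA or TGAGTCA in 3.85% against 4.46%. These are letter matches and give no measure of factor binding.

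On mm9, Itgb5, which rose after 5 weeks, lies on chromosome 16 from 33829751 to 33949239, plus strand. Of those that fell, Lamb3 lies on chromosome 1 from 195128151 to 195170072 (plus), Itgb4 on chromosome 11 from 115836023 to 115869726 (plus), Itga6 on chromosome 2 from 71583673 to 71696473 (plus) and Itga1 on chromosome 13 from 115748287 to 115892172 (minus).

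Total counts ranged from 13865518 to 21581153 per library, and the subunit genes took 0.0441% to 0.0773% of them. All 36 were among the 20180 genes tested, and 8 of them share exonic bases with another annotated gene. In 7 of these the partner lies on the other strand: Itgb4 (with B230344G16Rik), Itga8 (E030013I19Rik), Itgav (Gm13684), Itga7 (Mettl7b), Lamc3 (Gm13441), Itga4 (Cerkl) and Itgad (Cox6a2). The authors kept only reads assigned to a gene without ambiguity, and their use of strand is not stated, so the levels of these genes are uncertain by the reads in the shared bases. Acinar marker genes took 28.2% to 50.7% of counts in wild-type islets, 6.87% to 23.9% after 1 week, 3.29% to 4.58% after 3 weeks and 0.0346% to 0.225% after 5 weeks. Taf4, listed as Taf4a, ranged from 21.7 to 37.0 CPM (counts relative to library size after scaling by TMM, the trimmed mean of M-values) in all libraries, over all islet cells and all exons. Its log2 fold changes were 0.18 ± 0.16, -0.05 ± 0.16 and -0.16 ± 0.18 after 1, 3 and 5 weeks (edgeR adjusted p = 0.53, 0.87 and 0.54), so that a lower level was not seen in any group labelled mutant, and the loss of the floxed exons was not measured here. Y-linked genes held 1599 to 2254 counts in the wild-type libraries and 0 to 3 in the mutant libraries, while Xist held 122 to 389 and 24615 to 69939 counts. Sex and genotype therefore cannot be told apart in any comparison with the wild type. In bulk islets, fewer cells of a type and less RNA per cell cannot be told apart either.

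In wild-type islets, levels were compared between genes as CPM per kilobase of exon (mean ± SD, n = 3). Itgb1, the common beta chain of matrix-binding integrins, was highest at 30.3 ± 1.81, followed by Itgav, the vitronectin receptor alpha chain, at 14.0 ± 1.96. Itga6, a laminin-binding alpha chain, stood at 8.09 ± 1.70. Lamc1 was the highest laminin at 6.45 ± 0.38, within the SD of Itga6. Itga3 reached 4.55 ± 0.61 and Itgb5 3.39 ± 0.34. At the other end stood Itga2b (0.251 ± 0.103), Lama1 (0.235 ± 0.069) and Lamc3 (0.212 ± 0.071), whose values differed by less than their SDs.

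Compared with the wild type, the subunits fell more often than they rose, and the number that fell was largest after 5 weeks. The words rose and fell are used for genes with an adjusted p below 0.05 in the edgeR quasi-likelihood test over all genes tested. At 1 week, 3 of 36 rose (Itga3, Itgam and Lama2) and 6 fell (Itga6, Itga2, Itgad, Itgb3, Itgb4 and Lamb3), against 5.34% of all genes that rose and 4.42% that fell. At 3 weeks, 0 rose by edgeR, and 8 fell (Itga6, Itga1, Itga2, Itgad, Itgal, Itgb4, Lama5 and Lamb3), against 8.24% and 7.76% of all genes. At an unadjusted p below 0.05 by edgeR 1 was higher after 3 weeks, and DESeq2 called 0 higher. At 5 weeks, 1 rose (Itgb5) and 15 fell (Itga6, Itga1, Itga8, Itgav, Itga9, Itgad, Itgb4, Lama2, Lama3, Lama4, Lama5, Lamb1, Lamb2, Lamb3 and Lamc1), against 15.0% and 14.1% of all genes. With a log2 fold change past 1 as well, 1 rose and 5 fell after 1 week, 0 rose and 6 fell after 3 weeks, and 1 rose and 10 fell after 5 weeks. The corresponding shares of all genes were 1.65% and 2.92%, 1.6% and 5.05%, and 4.26% and 11.2%. The median log2 fold change of the 36 was -0.44, -0.48 and -0.84 after 1, 3 and 5 weeks, beside -0.04, -0.05 and -0.03 over all genes tested. The 3 comparisons share the same wild-type libraries.

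**Figure D1:**
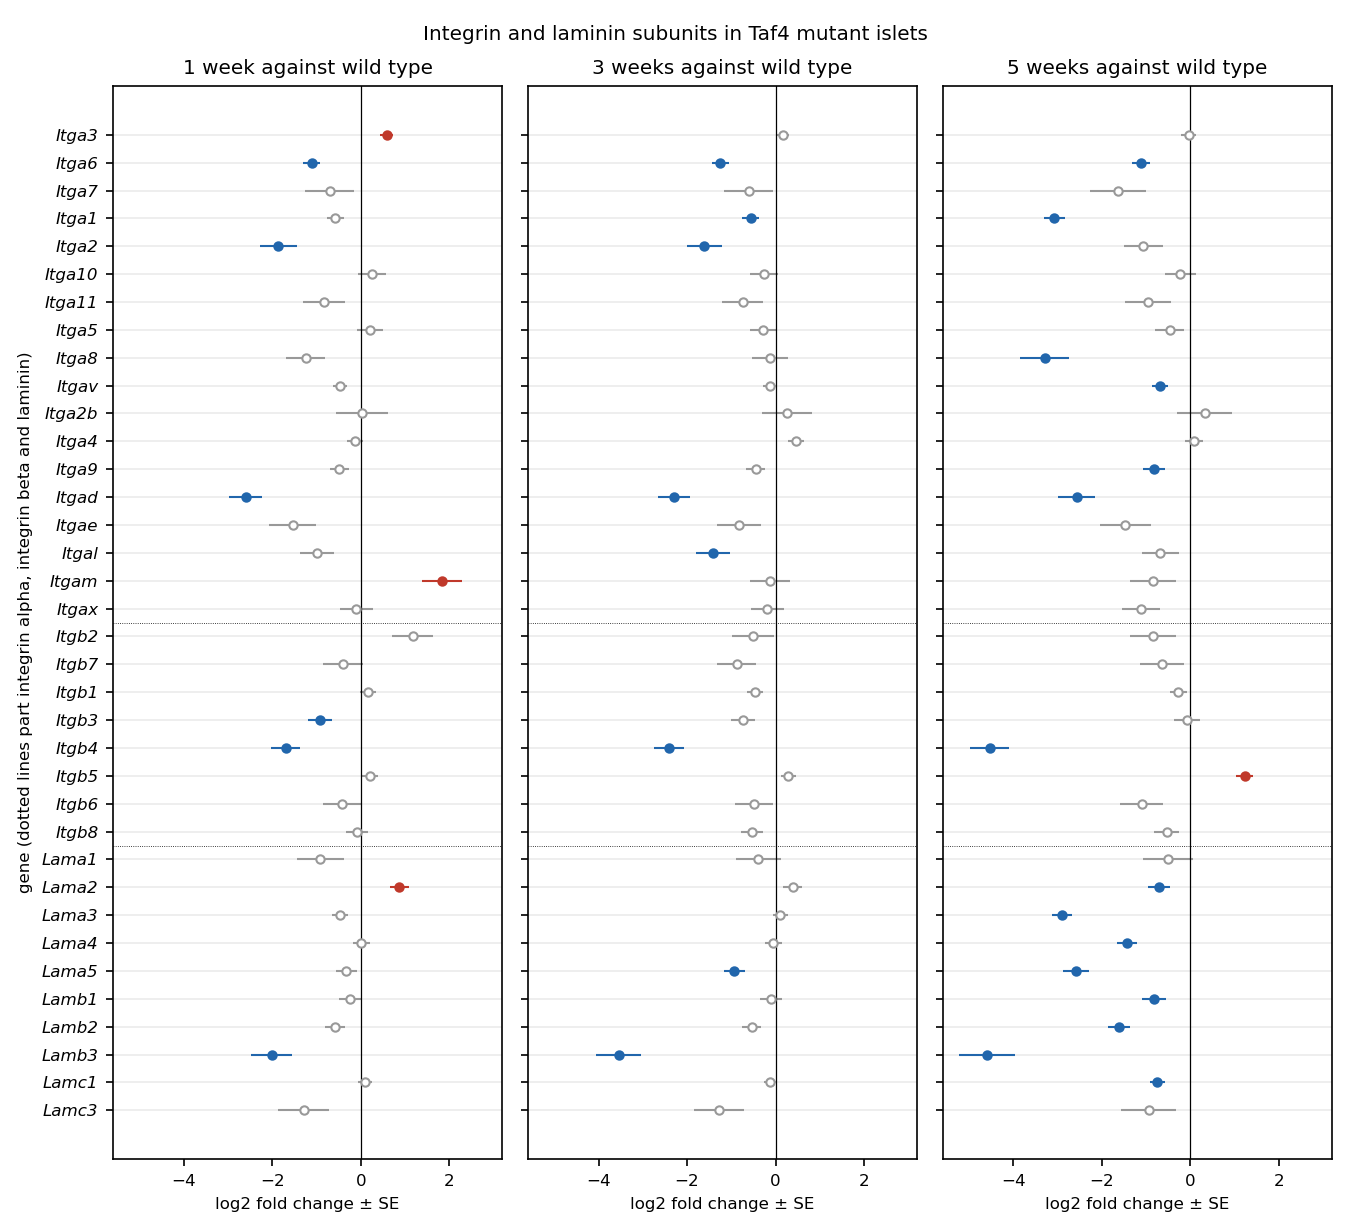
Log2 fold changes of the 36 subunit genes in Taf4 mutant islets after 1, 3 and 5 weeks against wild type (points, with SE as bars), where red points rose, blue points fell and open grey points did not pass an edgeR adjusted p of 0.05. The 5-week panel holds 15 blue points, 8 of them among the 10 laminin genes, and 1 red point, Itgb5.

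These counts depended on the scaling. Without scaling beyond library totals the log2 fold changes of all genes moved up by a median of 0.19, 0.66 and 0.99 after 1, 3 and 5 weeks, and with scaling on 12 genes shared by all endocrine cells by -0.20, -0.22 and 0.47. These 12 genes were not constant themselves. On the TMM scale their sum was 9568 to 12180 CPM in wild-type islets, 12274 to 12968 after 1 week, 12269 to 13786 after 3 weeks, and 7830 and 8025 after 5 weeks. Without scaling 3 subunits rose and 5 fell after 1 week, 5 rose and 3 fell after 3 weeks, and 5 rose and 7 fell after 5 weeks. The shares of all genes that rose and fell without scaling were 5.24% and 2.07% after 1 week, 35.6% and 2.55% after 3 weeks, and 49.4% and 4.43% after 5 weeks. With endocrine scaling 2 rose and 12 fell after 1 week, 0 rose and 11 fell after 3 weeks, and 1 rose and 10 fell after 5 weeks, beside 2.15% and 7.55%, 2.44% and 12.0%, and 35.1% and 8.13% of all genes. More subunits fell than rose at each time on each of these scalings except after 3 weeks without scaling, and the number that fell was not largest after 5 weeks with endocrine scaling.

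Among the laminin-binding alpha chains, Itga6 fell at every time. It stood at 88.7, 57.9 and 72.6 CPM in wild-type islets, 28.5, 42.9 and 29.9 after 1 week, 27.6, 36.1 and 28.5 after 3 weeks, and 31.0 and 36.1 in 5-week replicates 2 and 3. Every mutant library lay below every wild-type library, and the 3 mutant groups overlapped. The log2 fold changes were -1.11 ± 0.19, -1.25 ± 0.18 and -1.12 ± 0.21 after 1, 3 and 5 weeks (edgeR adjusted p = 0.0012, 0.00015 and 0.00063). Without scaling they were -0.90, -0.54 and -0.08, and the calls at 3 and 5 weeks were lost (edgeR adjusted p = 0.080 and 0.83). Itga3, the other epithelial laminin-binding alpha chain, moved differently: it held 26.2, 22.4 and 29.4 CPM in wild-type islets, 33.6, 44.9 and 38.1 after 1 week, 31.4, 25.9 and 29.4 after 3 weeks, and 24.6 and 26.0 after 5 weeks. It rose by 0.58 ± 0.16 in log2 units after 1 week (edgeR adjusted p = 0.024), which no longer passed without wild-type replicate 1 or 2 or 1-week replicate 2 or 3 (adjusted p from 0.051 to 0.10) and with endocrine scaling (0.38, adjusted p = 0.17). Within each library, the ratio of Itga6 to Itga3 counts per kilobase does not depend on scaling. It was 2.14, 1.63 and 1.56 in wild-type islets, 0.537, 0.606 and 0.496 after 1 week, 0.556, 0.880 and 0.612 after 3 weeks, and 0.798 and 0.879 after 5 weeks. Every mutant library thus lay below every wild-type library. Which of the 2 genes is higher depends on the lengths used. These were 9025 and 5710 exonic bases for Itga6 and Itga3, against median transcript lengths of 2721 and 4636 in the deposited table. Itga7, the laminin-binding chain of muscle, was low, with 2.53 to 2.99 CPM in wild-type islets and 0.119 and 1.55 after 5 weeks, and did not pass the test (-1.64 ± 0.64, edgeR adjusted p = 0.062).

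Itgb4 pairs with Itga6 alone and forms hemidesmosomes in epithelia such as ducts. It held 24.2, 11 and 21.0 CPM in wild-type islets, 2.96, 7.13 and 7.24 after 1 week, 4.24, 2.80 and 3.50 after 3 weeks, and 0.871 and 0.733 after 5 weeks. No mutant library reached the lowest wild-type value, and both 5-week libraries lay below all others. The log2 fold changes were -1.70 ± 0.32, -2.41 ± 0.33 and -4.54 ± 0.44 after 1, 3 and 5 weeks (edgeR adjusted p = 0.0031, 7.1e-05 and 6.2e-07), and 5 weeks lay below 3 weeks by the direct test (-2.13 ± 0.43, edgeR adjusted p = 0.0026). The ratio of Itgb4 to Itga6 per kilobase was 0.243 to 0.372 in wild-type islets, 0.134 to 0.312 after 1 week, 0.0997 to 0.197 after 3 weeks, and 0.0361 and 0.0261 after 5 weeks. Itgb4 thus fell further than its partner after 5 weeks on any scaling. Of 12 duct markers, 4, 5 and 7 fell after 1, 3 and 5 weeks, against 4.42%, 7.76% and 14.1% of all genes. Those that rose were 2, 0 and 2, against 5.34%, 8.24% and 15.0%. Muc1 and Sox9 fell by 5.23 ± 0.54 and 3.89 ± 0.45 in log2 units after 5 weeks, while Krt7 and Cldn4 rose by 1.45 ± 0.14 and 1.62 ± 0.25 (edgeR adjusted p = 1.2e-06, 3.9e-06, 3.8e-07 and 9.0e-05). The summed duct list held 283 to 469 CPM in wild-type islets and 307 to 339 after 5 weeks, with no marker at 0, and the part of duct and acinar RNA in the result was not tested.

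Lamb3 and Lama3 encode a beta and an alpha chain of epithelial laminin, a ligand of the integrin made of Itga6 and Itgb4, and their levels differed in time course. Lamb3 held 12.5, 5.76 and 10.5 CPM in wild-type islets, 0.741, 4.24 and 2.09 after 1 week, 1.23, 0.568 and 0.627 after 3 weeks, and 0.435 and 0.352 after 5 weeks. It lay below the wild type in every mutant library, by -2.02 ± 0.47, -3.55 ± 0.50 and -4.59 ± 0.63 in log2 units (edgeR adjusted p = 0.011, 0.0001 and 3.4e-05), and the 1-week call ended without wild-type replicate 1 or 1-week replicate 3 (adjusted p = 0.083 and 0.051). Lama3 held 14.6, 13.7 and 16.2 CPM in wild-type islets, 11.5, 11.9 and 8.61 after 1 week, 15.4, 16.5 and 15.9 after 3 weeks, and 1.90 and 2.05 after 5 weeks. Every 1-week library of Lama3 lay below the wild type, though it did not pass the test (-0.47 ± 0.18, edgeR adjusted p = 0.11). It overlapped the wild type after 3 weeks and was separate from it after 5 weeks. By 5 weeks it had fallen by 2.90 ± 0.23 in log2 units (edgeR adjusted p = 6.9e-08). The ratio of Lamb3 to Lama3 per kilobase was 1.02 to 2.07 in wild-type islets, 0.155 to 0.861 after 1 week, 0.0830 to 0.192 after 3 weeks, and 0.553 and 0.414 after 5 weeks. It was lower in every mutant library than in every wild-type library, a split that does not depend on the gene lengths used.

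**Figure D2:**
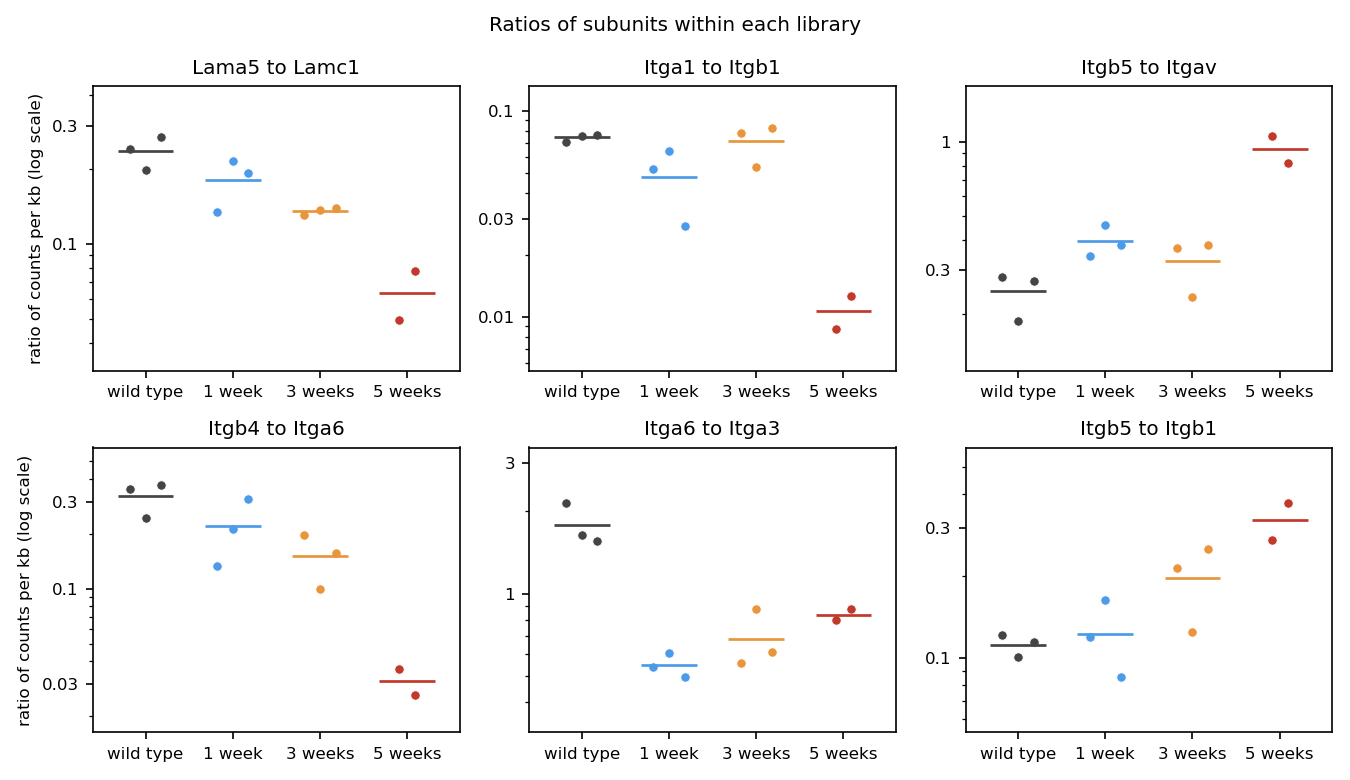
Ratios of counts per kilobase of exon between pairs of subunit genes in each library (points, log scale) with group means (lines), which are free of library scaling. The ratio of Itgb5 to Itgav was highest in both 5-week libraries (1.05 and 0.819), and those of Itga1 to Itgb1 (0.00877 and 0.0126) and Lama5 to Lamc1 (0.0492 and 0.0782) were lowest there.

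Lamc1, the gamma chain of most laminins, held 53.3, 50.2 and 56.5 CPM in wild-type islets, 66.6, 57.1 and 46.4 after 1 week, 53.5, 44.1 and 50.1 after 3 weeks, and 27.4 and 36.2 after 5 weeks. It fell after 5 weeks by 0.74 ± 0.18 in log2 units (edgeR adjusted p = 0.0041), lost when 5-week replicate 2 was left out (-0.55, adjusted p = 0.065) and with endocrine scaling (-0.27), and its direction turned without scaling (0.26, adjusted p = 0.45). The ratio of Lama5 to Lamc1, free of scaling, was 0.198 to 0.272 in wild-type islets, 0.134 to 0.215 after 1 week, 0.131 to 0.139 after 3 weeks, and 0.0492 and 0.0782 after 5 weeks. Lama5 was thus lower relative to Lamc1 in both 5-week libraries than in every other library. Lamc3 stayed at or below 1.72 CPM in every library and did not pass the test at any time.

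The laminin alpha chains of endothelial and other basement membranes fell after 5 weeks. Lama5, found with Lama4 in vessel walls and in most epithelia, held 17.7, 13.7 and 21.2 CPM in wild-type islets, 12.3, 16.9 and 12.4 after 1 week, 9.66, 8.31 and 9.61 after 3 weeks, and 1.86 and 3.90 after 5 weeks. It fell by 0.93 ± 0.24 after 3 weeks and 2.58 ± 0.29 after 5 weeks in log2 units (edgeR adjusted p = 0.012 and 3.8e-06), and the 3-week call ended without wild-type replicate 3 (-0.76, adjusted p = 0.071), without 3-week replicate 2 (adjusted p = 0.053) and without scaling (-0.22, adjusted p = 0.59). Lama4, the main alpha chain of endothelial laminin, held 13.2, 14.0 and 11.5 CPM in wild-type islets, 14.1, 12.5 and 12.4 after 1 week, 14.4, 10.3 and 12.7 after 3 weeks, and 3.96 and 5.57 after 5 weeks. The wild-type, 1-week and 3-week values of Lama4 overlapped, and it fell after 5 weeks by 1.43 ± 0.23 (edgeR adjusted p = 0.00014), a call lost without scaling (-0.45, adjusted p = 0.25). Lama2, the alpha chain of muscle and nerve laminin, held 16.9, 12.1 and 21.1 CPM in wild-type islets, 21.3, 32.2 and 38.1 after 1 week, 20.9 to 22.9 after 3 weeks, and 11.3 and 9.14 after 5 weeks. It was the one member that rose at one time (0.87 ± 0.21 after 1 week) and fell at another (-0.70 ± 0.24 after 5 weeks, edgeR adjusted p = 0.015 and 0.037), and 5 weeks lay below 1 week by -1.58 ± 0.25 (edgeR adjusted p = 0.00019). The calls of Lama2 against the wild type were fragile, while that of 5 weeks against 1 week held without each library in turn. The 1-week call ended without wild-type replicate 1 or 2 or 1-week replicate 3 (adjusted p from 0.058 to 0.081), and the 5-week call without wild-type replicate 1 or 3 or either 5-week replicate (adjusted p from 0.063 to 0.21), with a turned direction without scaling (0.34, adjusted p = 0.33).

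Of the beta chains, Lamb2, common in vessel and muscle basement membranes, held 11.9, 11 and 16.0 CPM in wild-type islets, 7.29 to 9.58 after 1 week, 7.70 to 10.9 after 3 weeks, and 3.88 and 4.57 after 5 weeks. It fell after 5 weeks by 1.61 ± 0.25 in log2 units (edgeR adjusted p = 0.00012), a call lost without scaling (-0.58, adjusted p = 0.14). Lamb1, the beta chain of the earliest laminins, held 8.89 to 15.2 CPM in wild-type islets and 6.45 and 7.21 after 5 weeks, and fell by 0.82 ± 0.28 (edgeR adjusted p = 0.033). That call ended without wild-type replicate 1 or 3 or either 5-week replicate (adjusted p from 0.076 to 0.16), and its direction turned without scaling (0.24, adjusted p = 0.57). All 3 beta chains and 4 of 5 alpha chains fell after 5 weeks, and Lama1 (1.23 and 1.90 CPM after 5 weeks, 1.54 to 2.84 in wild-type islets) did not pass the test.

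**Figure D3:**
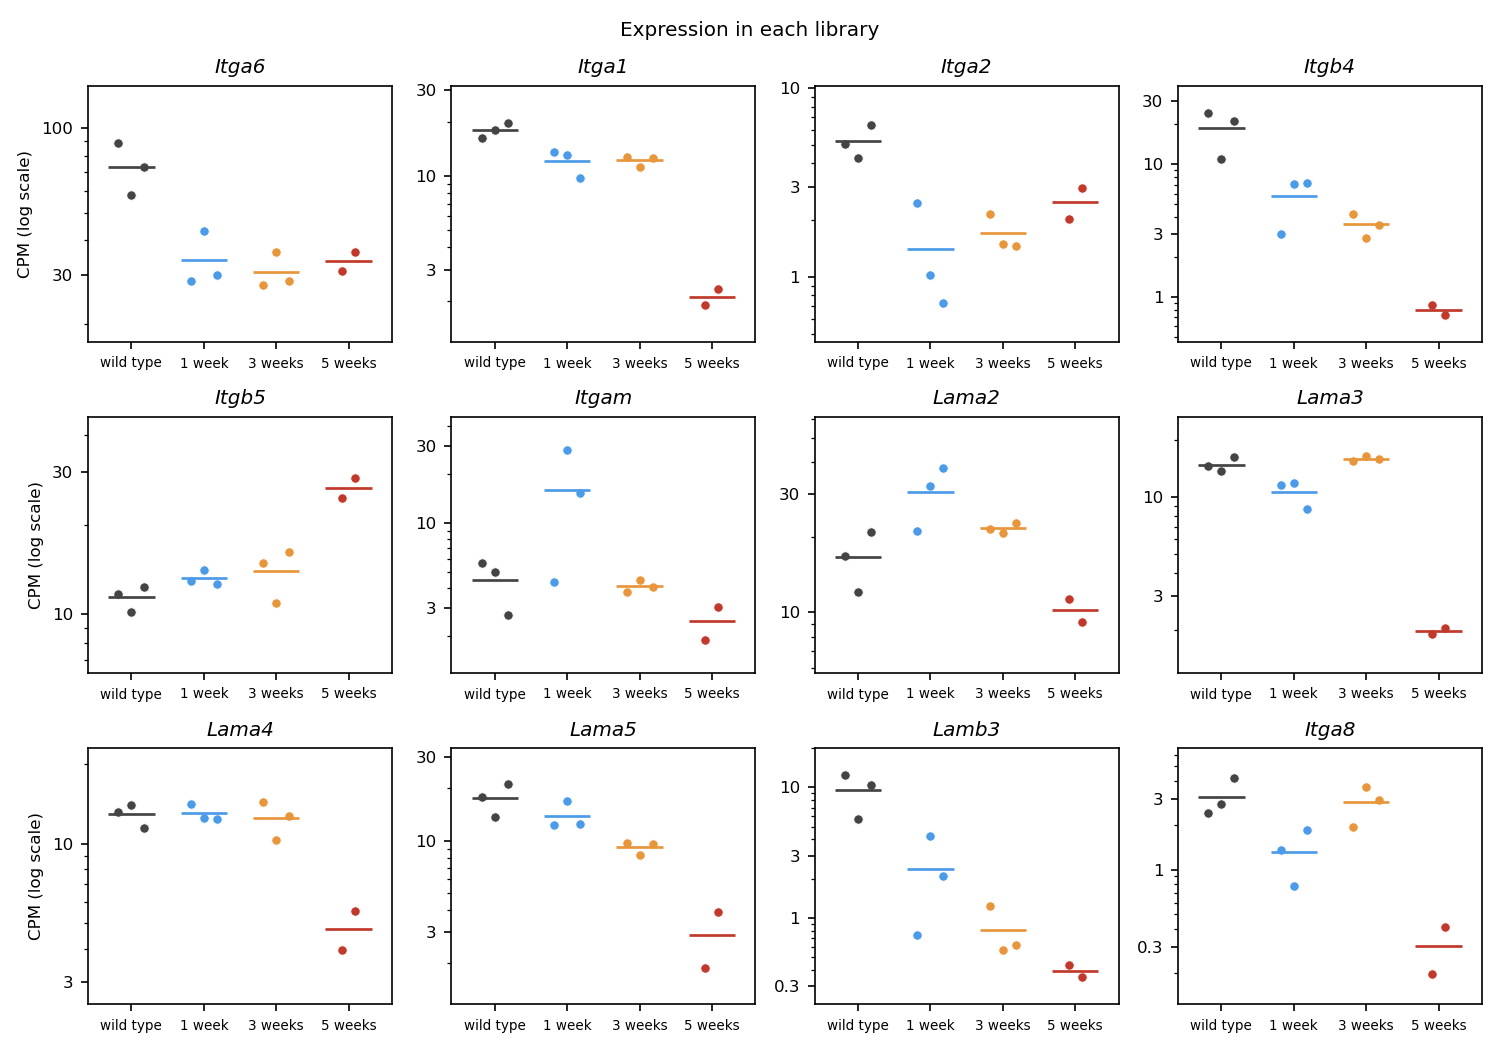
CPM of 12 subunit genes in every library (points, log scale) with group means (lines) for wild-type islets and Taf4 mutant islets after 1, 3 and 5 weeks. Itga6 is lower in all mutant libraries, Itgb4 and Lamb3 are lowest after 5 weeks, Itga1, Itga8, Lama3, Lama4 and Lama5 are separated from the other groups after 5 weeks, and Itgb5 is highest there.

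Among the collagen-binding alpha chains, Itga1, which is known from vascular and stromal cells, showed its fall after 5 weeks. It held 16.3, 18.1 and 19.8 CPM in wild-type islets, 13.5, 13.0 and 9.74 after 1 week, 12.8, 11.2 and 12.6 after 3 weeks, and 1.90 and 2.34 after 5 weeks. It fell by 3.08 ± 0.24 in log2 units after 5 weeks (edgeR adjusted p = 5.1e-08) and lay 2.51 ± 0.23 below the 3-week level (edgeR adjusted p = 8.5e-07). At 3 weeks the fall of 0.57 ± 0.18 (edgeR adjusted p = 0.041) ended without any one of the 6 wild-type and 3-week libraries (adjusted p from 0.069 to 0.15) and turned without scaling (0.09, adjusted p = 0.84). The ratio of Itga1 to its partner Itgb1 per kilobase was 0.0708 to 0.0768 in wild-type islets, 0.0277 to 0.0636 after 1 week, 0.0537 to 0.0825 after 3 weeks, and 0.00877 and 0.0126 after 5 weeks. Itga2, a collagen receptor of epithelia and platelets, went down earlier, from 5.04, 4.27 and 6.42 CPM in wild-type islets to 2.47, 1.03 and 0.724 after 1 week, 2.16, 1.5 and 1.46 after 3 weeks, and 2.02 and 2.96 after 5 weeks. It fell by 1.87 ± 0.42 after 1 week and 1.61 ± 0.40 after 3 weeks (edgeR adjusted p = 0.0088 and 0.010), the latter call ending without wild-type replicate 3 or 3-week replicate 3 (adjusted p = 0.051 and 0.050) and without scaling (-0.90, adjusted p = 0.10), while after 5 weeks it was -1.07 ± 0.44 (adjusted p = 0.077). Itga10 and Itga11 did not pass the test at any time.

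Among the alpha chains that bind RGD motifs, Itga8, a receptor of mesenchymal cells for nephronectin, held 2.43, 2.77 and 4.16 CPM in wild-type islets, 1.36, 0.770 and 1.85 after 1 week, 1.95, 3.65 and 2.98 after 3 weeks, and 0.198 and 0.410 after 5 weeks. It fell after 5 weeks by 3.29 ± 0.56 in log2 units (edgeR adjusted p = 0.00025), with 5 weeks also below 3 weeks (-3.17 ± 0.55, edgeR adjusted p = 0.00077). Itgav held 132, 174 and 146 CPM in wild-type islets, 97.8 to 121 after 1 week, 128 to 150 after 3 weeks, and 74.5 and 112 after 5 weeks. Its fall after 5 weeks was 0.69 ± 0.18 in log2 units (edgeR adjusted p = 0.0082), lost when 5-week replicate 2 was left out (-0.41, adjusted p = 0.13) and with endocrine scaling (-0.21, adjusted p = 0.43) and whose direction turned without scaling (0.27, adjusted p = 0.45). Itga5 and Itga2b, the fibronectin and platelet fibrinogen receptors, did not pass the test. Itga9, which binds tenascin, held 11.8, 10.1 and 10.4 CPM in wild-type islets and 5.14 and 7.03 after 5 weeks, a fall of 0.81 ± 0.24 (edgeR adjusted p = 0.018) that ended without wild-type replicate 1 (adjusted p = 0.065) or 5-week replicate 2 (adjusted p = 0.16) and turned without scaling (0.19, adjusted p = 0.65). Itga4, its relative, was the highest of the pair per kilobase (2.93 ± 0.40 in wild-type islets) and held 34.6 to 44.6 CPM in wild-type islets and 33.2 and 54.0 after 5 weeks.

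Itgb5, the beta chain that joins Itgav to bind vitronectin, rose after 5 weeks. It held 11.7, 10.2 and 12.4 CPM in wild-type islets, 13.0, 14.1 and 12.6 after 1 week, 14.8, 10.9 and 16.1 after 3 weeks, and 24.6 and 28.7 after 5 weeks. Both 5-week libraries exceeded all others, and the log2 fold change was 1.23 ± 0.19 (edgeR adjusted p = 0.00012). The ratio of Itgb5 to Itgav per kilobase was 0.187 to 0.282 in wild-type islets, 0.343 to 0.459 after 1 week, 0.234 to 0.381 after 3 weeks, and 1.05 and 0.819 after 5 weeks, and that of Itgb5 to Itgb1 was 0.101 to 0.121 in wild-type islets and 0.270 and 0.369 after 5 weeks. Vtn, the gene of vitronectin, fell by 4.90 ± 0.44 in log2 units after 5 weeks (edgeR adjusted p = 2.2e-07). Itgb1 held 117, 122 and 132 CPM in wild-type islets, 132, 105 and 179 after 1 week, 84.0, 106 and 77.8 after 3 weeks, and 110 and 94.7 after 5 weeks, and did not pass the test against the wild type at any time. Itgb3, the beta chain of the platelet fibrinogen receptor, held 6.06 to 8.39 CPM in wild-type islets and 2.74 to 5.33 after 1 week, a fall of 0.92 ± 0.28 in log2 units (edgeR adjusted p = 0.042) that ended when any one of wild-type replicates 1 and 2, 1-week replicates 1 and 3 and 3-week replicates 1 and 2 was left out (adjusted p from 0.053 to 0.16) and without scaling (adjusted p = 0.16). Itgb6 and Itgb8, whose integrins activate latent TGF-beta, did not pass the test.

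The leukocyte integrins were low in wild-type islets, and Itgam and Itgb2 differed between libraries after 1 week. Itgam, the alpha chain of macrophages and neutrophils, held 5.70, 4.98 and 2.71 CPM in wild-type islets, 4.32, 28.3 and 15.5 after 1 week, 3.77, 4.46 and 4.02 after 3 weeks, and 1.90 and 3.05 after 5 weeks. Its partner Itgb2 held 3.08, 3.98 and 1.45 CPM in wild-type islets, 2.35, 11.4 and 5.55 after 1 week, 1.78 to 2.2 after 3 weeks, and 1.42 and 1.76 after 5 weeks. In both genes 1-week replicate 1 lay within the wild-type range and replicate 2 was highest. Itgam rose by 1.84 ± 0.45 in log2 units after 1 week (edgeR adjusted p = 0.015), but the call ended without 1-week replicate 2 (1.17, adjusted p = 0.085), without wild-type replicate 3 (1.62, adjusted p = 0.055) and with robust dispersion estimates (adjusted p = 0.072). Itgb2 was 1.17 ± 0.45 after 1 week (edgeR adjusted p = 0.11). Summed leukocyte markers (15 genes) moved with them, at 75.2 to 96.9 CPM in wild-type islets, 106 to 350 after 1 week, 75.8 to 79.4 after 3 weeks, and 47.0 and 47.1 after 5 weeks, and none was at 0 in every 1-week library. Of the 15, 5 rose and 0 fell after 1 week (5.34% and 4.42% of all genes). Lyz2 (2.97 ± 0.41) and S100a8 (3.79 ± 0.78, edgeR adjusted p = 0.00024 and 0.0060) were among those that rose. The list was not uniform. Cd3e (-1.54 ± 0.60), C1qa (-1.01 ± 0.36), Cd79a (-0.46 ± 0.41) and Ptprc (-0.36 ± 0.30) pointed down without passing (edgeR adjusted p = 0.11, 0.088, 0.52 and 0.50). The part of leukocytes in the result was not tested.

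Itgad, another leukocyte alpha chain, fell at every time, and so did the level of Cox6a2, with which it shares exonic bases. How far reads in the shared bases entered the Itgad counts was not tested. Itgad held 8.31, 14.0 and 5.88 CPM in wild-type islets, 1.03 to 2.16 after 1 week, 1.62 to 2.08 after 3 weeks, and 1.31 and 1.85 after 5 weeks (-2.60 ± 0.37, -2.30 ± 0.36 and -2.57 ± 0.42 in log2 units, edgeR adjusted p = 0.00034, 0.00023 and 0.00016). Cox6a2 held 67.2 to 123 CPM in wild-type islets, 10.7 to 15.9 after 1 week, 9.53 to 10.4 after 3 weeks, and 5.03 and 3.46 after 5 weeks. Itgal, the alpha chain of lymphocytes, held 3.62 to 5.48 CPM in wild-type islets and 1.15 to 2.41 after 3 weeks, a fall of 1.42 ± 0.38 in log2 units (edgeR adjusted p = 0.016) that ended without wild-type replicate 2, 3-week replicate 2 or 3-week replicate 3 (adjusted p from 0.072 to 0.091) and without scaling (-0.81, adjusted p = 0.15). Itgb7, the highest leukocyte beta chain per kilobase in wild-type islets (1.01 ± 0.29), though within the SD of Itgb2 (0.93 ± 0.42), held 1.90 to 3.46 CPM there and 1.66 and 1.90 after 5 weeks, and Itgb7, Itgae and Itgax did not pass the test.

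Markers of vessels and stroma were also lower after 5 weeks. Of 12 endothelial markers tested, 10 fell after 5 weeks (14.1% of all genes), and the summed list of 13 held 366 to 506 CPM in wild-type islets, 378 to 471 after 1 week, 433 to 438 after 3 weeks, and 109 and 157 after 5 weeks. Of 13 mural cell and fibroblast markers, 12 fell, and their sum was 245 to 412 CPM in wild-type islets, 296 to 363 after 1 week, 227 to 244 after 3 weeks, and 38.3 and 39.4 after 5 weeks. No marker of either list was at 0 in both 5-week libraries. Plvap, of fenestrated capillaries, and Rgs5, of pericytes, fell by 3.10 ± 0.28 and 3.22 ± 0.28 in log2 units (edgeR adjusted p = 2.5e-07 and 1.3e-07). After 1 week, when Itga6, Itga2, Itgad, Itgb3, Itgb4 and Lamb3 had fallen, the summed levels of both lists overlapped the wild type. By then 2 of the 13 mural cell and fibroblast markers had fallen (Acta2 and Myh11), and 0 of the 12 endothelial markers. Of 33 acinar markers tested, 14 had fallen and 0 had risen. Of 12 duct markers, 4 had fallen and 2 had risen (Krt7 and Cldn4). The shares of all genes were 4.42% and 5.34%. The part of any of these cell types in the subunit values after 1 or 5 weeks was not tested. Summed beta cell markers (12 genes) were 137686 to 187603 CPM in wild-type islets, 180662 to 211700 after 1 week, 136212 to 167268 after 3 weeks, and 30691 and 67435 after 5 weeks. Among these genes 7, 6 and 8 fell after 1, 3 and 5 weeks, against 4.42%, 7.76% and 14.1% of all genes. Those that rose were 1, 1 and 0, against 5.34%, 8.24% and 15.0%, the riser after 1 and 3 weeks being Ins2. Summed alpha cell markers (8 genes) were 30423 to 66690 CPM in wild-type islets, 179068 to 205228 after 1 week, 86183 to 108081 after 3 weeks, and 57828 and 88400 after 5 weeks. Of 7 alpha cell markers tested, 5 rose and 0 fell after 1 week. Of 7 delta and PP cell markers, 5 rose and 1 fell then. The part of these endocrine cells in the subunit values was not tested either.

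**Figure D4:**
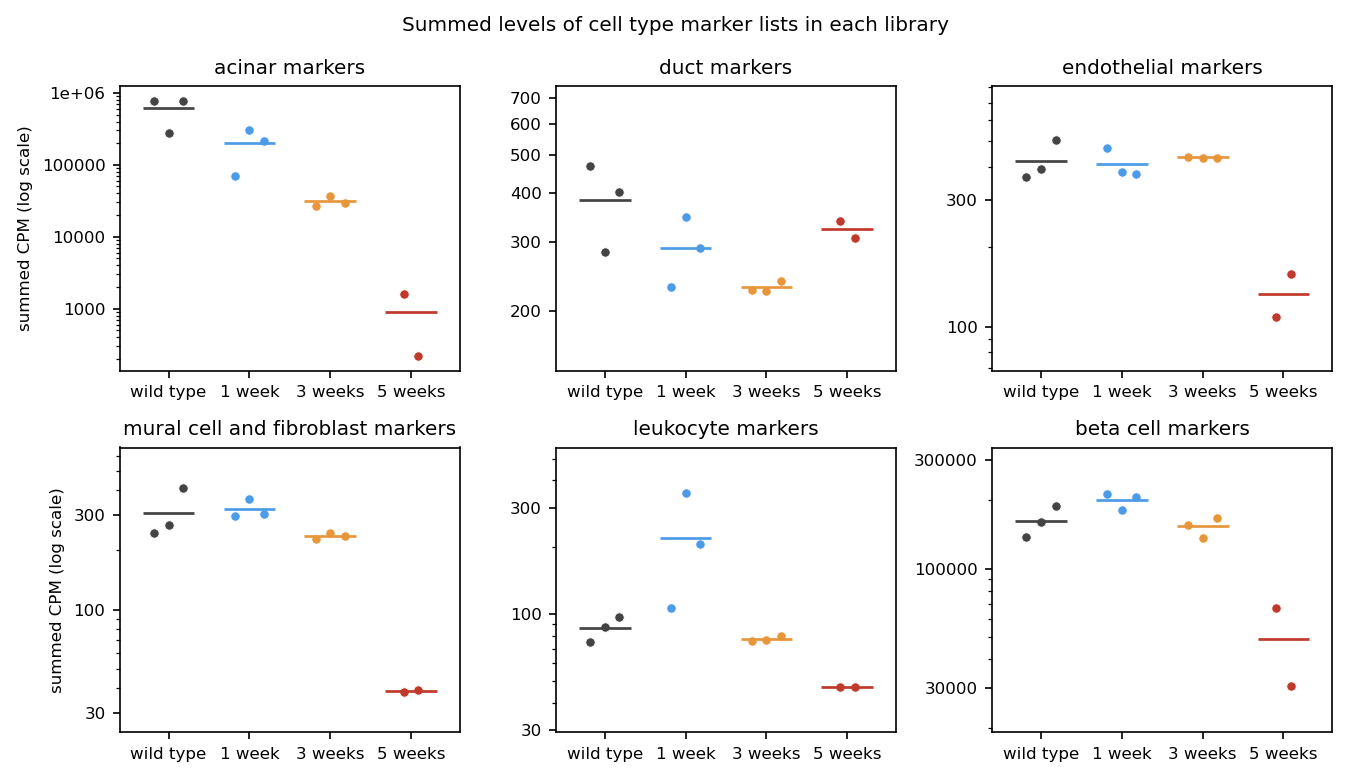
Summed CPM of 6 cell type marker lists in every library (points, log scale) with group means (lines). Endothelial and mural cell markers are lowest in the 5-week libraries, acinar marker means fall from each group to the next, and leukocyte markers are highest in 1-week replicate 2 (350 CPM).

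After 5 weeks, when 15.0% of all genes rose and 14.1% fell, other genes of the pathway were counted by list. Of 14 other basement membrane genes, 10 fell and 0 rose, with a median log2 fold change of -1.5 (-0.10 and -0.05 at 1 and 3 weeks). Also 0 were higher at an unadjusted p below 0.05 by edgeR, and DESeq2 called 0 higher. Hspg2 (perlecan) fell by 3.12 ± 0.22, Col4a3 by 2.49 ± 0.34, Col4a5 by 2.07 ± 0.66 and Col15a1 by 1.81 ± 0.37 in log2 units (edgeR adjusted p = 2.3e-08, 3.0e-05, 0.024 and 0.0012), the latter 3 being basement membrane collagen chains. The Col4a5 call ended without wild-type replicate 1 or either 5-week replicate (adjusted p from 0.070 to 0.14), without scaling (adjusted p = 0.071) and with robust dispersion estimates (adjusted p = 0.051). Of 10 other laminin receptors, 2 rose and 5 fell after 5 weeks. Bcam, a receptor of Lama5, fell by 1.86 ± 0.28, the tetraspanin Cd151, which binds laminin receptor integrins, by 1.62 ± 0.31 and Cd44 by 1.02 ± 0.18, while Sgcb, of the sarcoglycan complex, rose by 1.13 ± 0.19 (edgeR adjusted p = 8.1e-05, 0.00070, 0.00041 and 0.00023). Without scaling the calls of Cd151 and Cd44 were lost (adjusted p = 0.10 and 0.95). Of 19 other integrin ligands tested, 3 rose and 8 fell. Besides Vtn, the microfibril genes Emilin1 and Fbn1 fell by 2.48 ± 0.27 and 2.08 ± 0.29 (edgeR adjusted p = 2.3e-06 and 3.5e-05). Fn1, fibronectin, rose by 3.32 ± 0.55 after 1 week and fell by 3.13 ± 0.72 after 5 weeks (edgeR adjusted p = 0.0012 and 0.0034), with 9.90 to 18.8 CPM in wild-type islets and 22.8, 272 and 100 in 1-week replicates 1 to 3. Its 5-week call ended without 5-week replicate 3 (adjusted p = 0.052) and with robust dispersion estimates (adjusted p = 0.077). Of 26 integrin adaptor genes tested, 2 rose and 7 fell after 5 weeks. Ptk2, focal adhesion kinase, rose by 1.31 ± 0.15 and Fermt2, an integrin activator, by 0.76 ± 0.15, while Tns1, which links integrins to actin, fell by 3.10 ± 0.28 (edgeR adjusted p = 4.4e-06, 0.00080 and 2.0e-07). Fermt1, the epithelial relative of Fermt2, fell by 0.98 ± 0.35 (edgeR adjusted p = 0.045). The fall did not pass the test when any one of 7 libraries was left out (wild-type replicates 1 and 3, 1-week replicate 3, all 3-week replicates and 5-week replicate 3, adjusted p from 0.055 to 0.37), with endocrine scaling (-0.53, adjusted p = 0.24), without acinar markers (adjusted p = 0.053) or with the replicate block (adjusted p = 0.051), and its direction turned without scaling (0.04, adjusted p = 0.93).

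The comparisons between mutant times contrast mutant groups only, but the wild-type libraries entered the shared filter, scaling and dispersion estimate. By the direct test, 3 subunits fell and 0 rose from 1 to 3 weeks by edgeR (2.87% and 0.942% of all genes), while 4 were higher at an unadjusted p below 0.05 and DESeq2 called 2 higher. From 1 to 5 weeks 13 fell and 1 rose (8.76% and 7.68%), and from 3 to 5 weeks 9 fell and 1 rose (5.71% and 6.07%). With a log2 fold change past 1 as well, 2 fell and 0 rose from 1 to 3 weeks (1.87% and 0.198% of all genes), 11 fell and 1 rose from 1 to 5 weeks (6.74% and 2.31%), and 8 fell and 0 rose from 3 to 5 weeks (4.01% and 2.2%). Itgb5 was the gene that rose in both comparisons with 5 weeks. Of 10 laminin genes, 6 fell from 3 to 5 weeks, with Lama3 (-3.01 ± 0.23) and Lama5 (-1.65 ± 0.29, edgeR adjusted p = 1.2e-07 and 0.00076) among them.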

How the data were processed

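Per the submitters' notes and the study's methods, islet RNA was amplified linearly, and the tools used were bcl2fastq 2.17.1.14 (demultiplexing), cutadapt 1.10 (trimming), Bowtie2 2.2.8 (removal of ribosomal reads) and STAR 2.5.3a (alignment to mm9), and HTSeq counted reads that fell to a single Ensembl gene (union mode, ambiguous reads left out), without a stated use of strand. The deposited table holds raw counts per gene, used here, for 11 libraries, and a signal, computed by the authors as normalised counts over median transcript length and not used. The log2 fold changes and p-values of the authors' DESeq2 comparisons were not used. The first 5-week replicate was not analysed here.

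Sample titles gave the groups and replicate numbers. Counts were filtered (filterByExpr), scaled by TMM and fitted over the 4 groups with edgeR 4.0.16 (default glmQLFit and glmQLFTest) in R 4.3.3, with Benjamini-Hochberg adjustment over 20180 genes. SE is the log2 fold change over the square root of F. Exon lengths and overlaps came from the GENCODE M1 annotation of mm9. Alternatives included DESeq2 1.42.0, other scalings and filters, and leaving out each library. The first fit used edgeR's robust dispersion options. After its results were seen it was replaced by the default fit, which the written design names, and the robust fit is kept as an alternative whose changed calls are listed in the closing section. P-values measure the spread between pools of animals, and depth per library is given with the results.

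The members and gene lists were chosen with earlier results of these data known, and 1 of the 37 members is not reported here. Values in every library are given for members past the threshold in a comparison with the wild type and for the highest member of each role per kilobase. Of the pathway lists, at most 4 genes a list are named, those past the threshold after 5 weeks with the largest changes among genes of at least 5 CPM on average in either group.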

Additional observations from a re-analysis of the deposited data

Results flagged for a closer look

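The subunits named here were picked out because their levels in mutant islets differed between times by the direct edgeR test. It contrasts the mutant groups alone, within the fit that also holds the wild-type libraries. Log2 fold changes of 3 weeks against 1 week were Itgam (-1.97), Itgb1 (-0.63) and Itgb2 (-1.68). The Itgam and Itgb2 values moved to -1.28 and -0.98 and lost their calls without 1-week replicate 2 (edgeR adjusted p = 0.10 and 0.25), and Itgb1 moved to -0.41 without 1-week replicate 3 (edgeR adjusted p = 0.25). All 3 calls also ended without other single libraries.

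Log2 fold changes of 5 weeks against 1 week were Itga1 (-2.50), Itga3 (-0.62), Itga8 (-2.05), Itgam (-2.68), Itgb2 (-2.01), Itgb4 (-2.84), Itgb5 (1.01), Lama2 (-1.58), Lama3 (-2.43), Lama4 (-1.44), Lama5 (-2.25), Lamb2 (-1.03), Lamb3 (-2.57) and Lamc1 (-0.83). The Itgb2 value was -1.31 without 1-week replicate 2 (edgeR adjusted p = 0.089). The Itga3, Itga8, Lamb2 and Lamb3 calls were also lost without 1 to 3 single libraries (edgeR adjusted p from 0.051 to 0.11).

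Log2 fold changes of 5 weeks against 3 weeks were Itga1 (-2.51), Itga8 (-3.17), Itgb4 (-2.13), Itgb5 (0.94), Lama2 (-1.09), Lama3 (-3.01), Lama4 (-1.38), Lama5 (-1.65), Lamb2 (-1.07) and Lamc1 (-0.63). The calls of Lama2, Lamb2 and Lamc1 were lost without at least 1 single library (edgeR adjusted p from 0.060 to 0.21), and those of Itga1, Itga8, Itgb4, Itgb5, Lama3, Lama4 and Lama5 held without each library in turn.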

How the results depend on the processing

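The 60 calls of single subunits over 6 comparisons were recomputed under 21 alternatives. Of 1260 values, 1133 kept direction and call, 118 kept direction and lost the call, and 9 turned. DESeq2 size factors in place of TMM, the filter of 1 CPM in 3 libraries and DESeq2 lost none of the 60.

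Scaling moved the counts most. Without scaling, the calls at 3 weeks were 5 higher and 3 lower, at 5 weeks 5 and 7, from 1 to 3 weeks 4 and 1, and from 1 to 5 weeks 5 and 7 (35.6% and 2.55%, 49.4% and 4.43%, 10.4% and 1.26%, and 42.2% and 3.26% of all genes). With endocrine scaling, 12 were lower at 1 week (7.55% of all genes), 5 higher from 1 to 5 weeks (42.0%) and 7 higher from 3 to 5 weeks (43.8%). DESeq2 called 10 lower at 1 week and 2 higher from 1 to 3 weeks and from 1 to 5 weeks. Without a count filter 1 was higher at 3 weeks, 1 from 1 to 3 weeks and 2 from 1 to 5 weeks. With only the 2 groups compared in the fit 1 was higher at 3 weeks and 1 from 1 to 3 weeks. Directions turned without scaling for Itga1 at 3 weeks (0.094), for Itgav (0.27), Itga9 (0.19), Lama2 (0.34), Lamb1 (0.24) and Lamc1 (0.26) at 5 weeks and for Itga3 from 1 to 5 weeks (0.20), and with endocrine scaling for Itga3 from 1 to 5 weeks (0.058) and Lamc1 from 3 to 5 weeks (0.070). The cause was not tested.

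With single libraries left out, the counts that rose and fell ranged from 1 to 4 and from 4 to 8 at 1 week, from 0 to 1 and from 5 to 10 at 3 weeks, and from 1 to 1 and from 11 to 17 at 5 weeks. They ranged from 0 to 1 and from 0 to 3 between 1 and 3 weeks, from 1 to 2 and from 9 to 13 between 1 and 5 weeks, and from 1 to 1 and from 7 to 11 between 3 and 5 weeks.

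The default dispersion options replaced the robust ones of the first fit after the data were seen. With the robust options, 4 calls differ: Itgam lost its calls at 1 week and from 1 to 3 weeks (edgeR adjusted p = 0.072 and 0.091), and Itgav gained calls at 1 week and from 3 to 5 weeks (edgeR adjusted p = 0.047 and 0.033).

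Same-numbered libraries of different groups had correlations of their deviations from -0.115 to 0.185, and libraries with different numbers from -0.179 to 0.163. The deviations were taken from group means of few libraries, which ties these correlations to each other. They cannot decide whether replicate numbers pair the samples. With the replicate number as a block 3 rose and 6 fell at 1 week, 0 and 7 at 3 weeks, 1 and 16 at 5 weeks, 0 and 1 from 1 to 3 weeks, 1 and 13 from 1 to 5 weeks, and 1 and 8 from 3 to 5 weeks.

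With 2 libraries at 5 weeks and 3 elsewhere, low genes are the least certain: Lamc3, Lama1, Itga2b and Itga7 stayed under 3 CPM in every library.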
